A study of Schizosaccharomyces pombe with 6 samples.

Results

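The series mapped SUMO ligases on the chromosomes of fission yeast (Schizosaccharomyces pombe) by chromatin immunoprecipitation and sequencing (ChIP-seq), and the regions described here are the long peaks of its control. They are the peaks of 1 kb or longer in the list called from a strain without a tag. Of the 3535 untagged peaks, 504 (14.3%) were this long. The members were chosen by their length in the untagged list, so their lengths and the untagged scores are given as a description and support nothing further. The strains carried no tag, Pli1-12Pk or Nse2-12Pk. Each was growing exponentially in the rich medium YES and was mixed with budding yeast Ku70-cMyc cells as a calibrator, crosslinked with formaldehyde and immunoprecipitated through the Pk tag (anti-Pk). That gave 6 samples, 1 ChIP library with its input per strain, for 3 strains. Without replicates the strains cannot be tested against each other, and the intervals given for shares and densities are exact 95% intervals (Clopper-Pearson for shares, Poisson for densities) that cover counting error only. Each list came from 1 library, of unknown read depth.

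SUMO is a small protein that ligases attach to other proteins. Pli1 belongs to the PIAS family of these ligases, and Nse2 is part of the Smc5/6 complex, a machine of DNA repair and chromosome stability. A strain without the tag has no target for the antibody, so its peaks are DNA recovered without the tagged protein. Heavily transcribed genes and other open chromatin are known from budding yeast to be recovered in such controls. Codon usage is used as a rough guide to how strongly yeast genes are expressed, because abundant proteins favour a small set of codons.

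The long peaks lay in protein-coding sequence and ran along the bodies of single genes. Of their 689180 bp, 95.6% were coding exon, against 94.3% in the shorter untagged peaks and 56.9% of the genome. Their GC content was 42.8%, against 41.9% for the shorter peaks, 39.6% for all coding exons and 36.1% for the genome. To show the sequence under the summits (the positions of highest signal), the 6 highest-scoring long peaks that allowed a pair of 120-base windows are printed. The first window of a pair is centred on the untagged summit as far as the exon allows, and the second lies in the middle of the longest coding stretch of the same gene under no untagged peak. All are read 5′ to 3′ on the coding strand of the ASM294v3 reference, with G and C in capitals.
ssa2, summit, chrIII:2059067-2059186, + strand: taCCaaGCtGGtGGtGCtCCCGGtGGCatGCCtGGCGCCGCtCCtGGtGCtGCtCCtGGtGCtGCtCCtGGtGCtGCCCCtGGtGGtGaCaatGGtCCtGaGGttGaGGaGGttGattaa
ssa2, no peak, chrIII:2057299-2057418, + strand: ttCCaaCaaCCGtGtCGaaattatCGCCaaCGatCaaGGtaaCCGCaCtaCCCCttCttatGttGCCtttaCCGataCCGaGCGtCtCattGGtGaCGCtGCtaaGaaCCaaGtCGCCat
gar2, summit, chrI:1898897-1899016, + strand: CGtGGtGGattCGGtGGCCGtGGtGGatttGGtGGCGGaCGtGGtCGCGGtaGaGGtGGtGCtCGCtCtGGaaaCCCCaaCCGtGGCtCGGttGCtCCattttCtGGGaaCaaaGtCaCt
gar2, no peak, chrI:1897767-1897886, + strand: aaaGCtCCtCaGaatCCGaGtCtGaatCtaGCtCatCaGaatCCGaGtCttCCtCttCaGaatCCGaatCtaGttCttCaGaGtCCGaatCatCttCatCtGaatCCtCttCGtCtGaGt
vht1, summit, chrI:4959397-4959516, - strand: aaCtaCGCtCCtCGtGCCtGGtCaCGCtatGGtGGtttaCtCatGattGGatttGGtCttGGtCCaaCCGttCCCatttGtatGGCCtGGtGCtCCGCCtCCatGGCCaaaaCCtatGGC
vht1, no peak, chrI:4959127-4959246, - strand: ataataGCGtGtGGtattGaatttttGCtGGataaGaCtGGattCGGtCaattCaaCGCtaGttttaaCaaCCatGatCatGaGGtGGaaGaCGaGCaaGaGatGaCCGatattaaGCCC
eno101, summit, chrII:2202372-2202491, + strand: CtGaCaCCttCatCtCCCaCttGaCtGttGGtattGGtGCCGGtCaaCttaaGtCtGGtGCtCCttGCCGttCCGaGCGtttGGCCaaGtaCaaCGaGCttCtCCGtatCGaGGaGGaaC
eno101, no peak, chrII:2201321-2201440, + strand: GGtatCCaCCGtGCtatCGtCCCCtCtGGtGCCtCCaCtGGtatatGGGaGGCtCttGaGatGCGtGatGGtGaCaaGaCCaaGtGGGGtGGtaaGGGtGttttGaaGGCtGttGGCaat
adh1, summit, chrIII:1592098-1592217, + strand: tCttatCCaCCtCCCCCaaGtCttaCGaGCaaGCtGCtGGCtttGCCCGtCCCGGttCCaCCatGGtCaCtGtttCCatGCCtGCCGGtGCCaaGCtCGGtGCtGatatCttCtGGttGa
adh1, no peak, chrIII:1591492-1591611, + strand: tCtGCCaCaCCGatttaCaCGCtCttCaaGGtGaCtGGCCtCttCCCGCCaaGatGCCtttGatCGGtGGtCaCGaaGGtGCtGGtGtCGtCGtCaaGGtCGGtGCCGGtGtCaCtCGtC
wsp1, summit, chrI:4861943-4862062, - strand: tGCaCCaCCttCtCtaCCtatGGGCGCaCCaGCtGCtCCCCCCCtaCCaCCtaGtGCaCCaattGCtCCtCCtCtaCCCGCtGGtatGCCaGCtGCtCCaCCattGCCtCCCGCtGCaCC
wsp1, no peak, chrI:4863280-4863399, - strand: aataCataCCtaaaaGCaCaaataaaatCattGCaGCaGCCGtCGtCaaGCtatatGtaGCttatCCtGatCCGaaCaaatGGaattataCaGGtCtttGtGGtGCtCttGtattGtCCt
The genes code for an Hsp70 chaperone (ssa2), the nucleolar protein nucleolin (gar2), the biotin (vitamin H) transporter (vht1), enolase (eno101), alcohol dehydrogenase (adh1) and an activator of actin assembly (wsp1). The summit windows hold 62.5% G and C in ssa2, 60% in gar2, 53.3% in vht1 and eno101, 56.7% in adh1 and 62.5% in wsp1. The paired windows outside untagged peaks hold 49.2%, 44.2%, 40.8%, 54.2%, 58.3% and 38.3% in the same order. The summit window had the higher GC content in ssa2, gar2, vht1 and wsp1 and the lower in eno101 and adh1. In ssa2 the window is the very end of the coding sequence, with repeated runs of glycine, alanine and proline codons, and in wsp1 it lies in a proline-rich stretch. Over all 402 long peaks that allowed both windows, the summit window was higher in 312 and lower in 72, with medians of 45% and 40%.

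The long peaks were spread over all chromosomes and covered 5.48% of the genome. Chromosome I held 214 (38.4 per Mb), chromosome II 185 (40.8 per Mb) and chromosome III 105 (42.8 per Mb). Their median length was 1240 bp, with the middle 50% between 1090 and 1507.5 bp and a maximum of 3540 bp. They made up 29.3% of all bases under untagged peaks, while the 3031 shorter peaks (median 509 bp) covered 13.2% of the genome.

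The length threshold cut through a continuous distribution. There were 38 peaks within 25 bp below the threshold and 35 within 25 bp from it upward. Just inside the threshold lay elg1 (1000 bp, score 61), a gene for a clamp loader subunit in replication, elo1 (1000 bp, score 133), a fatty acid elongase gene, dbl2 (1001 bp, score 119), a recombination gene, SPCC61.05 (1002 bp, score 97), and the non-coding RNA gene nam1 (1002 bp, score 257). Just outside lay SPBCPT2R1.07C (999 bp, score 595), bip1 (999 bp, score 129), which codes for the Hsp70 chaperone of the endoplasmic reticulum, knh3 (998 bp, score 406), cts1 (998 bp, score 459), which codes for CTP synthase, and not1 (997 bp, score 108), a gene of the Ccr4-Not complex. The scores on either side of the threshold overlapped.

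The score is a whole number that the authors' caller gave each peak. Its scale is not stated, so it ranks peaks within this list only. Long peaks scored from 37 to 2584, with a median of 197 and the middle 50% between 129 and 313. The median of the shorter peaks was 120, but they reached 12828, at the ribosomal RNA gene SPRRNA.49. Other ribosomal RNA genes, such as SPRRNA.44 (7115) and SPRRNA.48 (6247), also scored above every long peak. Of the shorter peaks, 810 scored at or above the median of the long peaks. Of the 50 highest scores in the whole untagged list, 14 belonged to long peaks, and of the 100 highest, 33. Within the long peaks, length and score were only weakly related (Spearman's rho 0.22 over the 504 peaks of this 1 library).

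**Figure D1:**
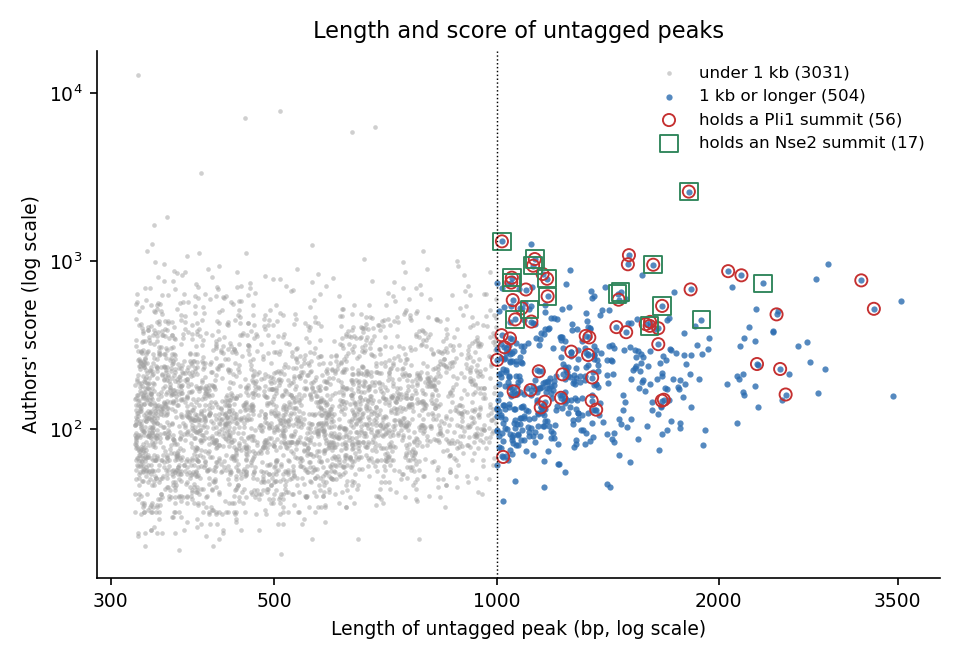
Length (x axis, bp, log scale) and authors' score (y axis, log scale) of the 3535 untagged peaks, 1 point each, with the 504 peaks of 1 kb or longer in blue and those holding a Pli1 (56, circles) or Nse2 (17, squares) summit marked. The highest long peak, at 2584, is ssa2, and the 6 highest scores of the list belong to shorter peaks, the first of them at the ribosomal RNA gene SPRRNA.49.

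The 15 highest-scoring long peaks covered genes of very different function. The peak at ssa2 (chromosome III, 2057476 to 2059298) scored 2584 and covered 88.0% of the coding span, which is the stretch from start to stop codon. The peak at gar2 (chromosome I, 1898133 to 1899246) scored 1262 and covered 59.4%, with its summit 95.5% of the way to the stop codon. The peak at vht1 (chromosome I, 4959282 to 4960793) scored 1081 and covered 88.6%. The glycolytic gene eno101 (score 1025) and the fermentation gene adh1 (935) were among them, as were pma1 (963), which codes for the proton pump of the plasma membrane, and tef102 (954), which codes for the translation elongation factor EF-1 alpha. The cell wall gene psu1 scored 948. The metabolic genes met17 (homocysteine synthase, 879) and tkt1 (transketolase, 868) followed. A pair of genes of actin patches, the sites of endocytosis, were present: wsp1 scored 835 and shd1, which codes for a protein of the Sla1 family, 820. The gene lsd90 also scored 820 and had the highest GC content of any long peak, at 54.2%. The other peaks of the 15 were at the non-coding RNA gene SPNCRNA.7192 in centromere 3 (1306) and at the subtelomeric helicase gene tlh1 (794). Of the 15, 3 (SPNCRNA.7192, tef102 and tlh1) were over 50% repeated sequence, meaning 50-mers with a second copy elsewhere.

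The 10 longest peaks covered nearly the whole coding span in 7 cases. The longest, 3540 bp at pfl2, a cell surface glycoprotein gene of the flocculin family, covered 100% and scored 580. The next were arg4 (3443 bp, 98.2% covered, score 157), which codes for carbamoyl-phosphate synthase of the arginine pathway, ssn6 (3248 bp, 97.9%, score 518), a transcriptional corepressor gene, and tef3 (3123 bp, 96.2%, score 765), the elongation factor eEF3 gene. Then came pma1 (2816 bp, 98.3%), cpy1 (2791 bp, 92.8%), a vacuolar carboxypeptidase gene, and pfk1 (2710 bp, 95.8%), the phosphofructokinase gene. The 3 others covered part of longer genes. They were pfl5 (2731 bp, 70.9%), a glycoprotein gene, bfr1 (2663 bp, 58.0%), which codes for a drug efflux pump, and rpa2 (2638 bp, 74.4%), which codes for a subunit of RNA polymerase I. Scores among these 10 ran from 157 to 963, so a long run along the gene went with a low score as well as with a high one.

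The 5 lowest scores belonged to peaks at cho2 (37), a phospholipid synthesis gene, sfb3 (45), a gene of the COPII vesicle coat, tra2 (45), which codes for a kinase-like protein, the subtelomeric helicase gene tlh2 (47) and ede1 (49), a gene of actin patches. All 5 covered less than 50% of the coding span, from 12.9% in tra2 to 42.4% in sfb3.

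Genes were assigned by the most coding bases under a peak. A main gene was found for 493 peaks, and these were 467 different genes, while 487 of the 493 peaks touched the coding span of 1 gene. The peak covered a median of 64.0% of the coding span (middle 50%, 40.7% to 83.1%), against 29.1% for the shorter peaks. It covered at least 80% in 145 cases, at least 95% in 36 and less than 25% in 30, and under 50% in 177. The share was smaller on longer genes, which follows in part from the rule, since a peak of 1 kb or more must take up much of a short gene. In the 99 peaks on coding spans under 1500 bp the median share was 87.4%. It was 71.1% in the 136 peaks on spans of 1500 to 2000 bp and 50.9% in the 124 on spans of 2000 to 3000 bp. On spans of 3000 to 5000 bp (90 peaks) it was 36.7%, and on spans of 5000 bp or more (44 peaks) 23.4%. The median length of the peaks was 1133 bp in the first of these classes and 1422.5 bp in the last.

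Long genes could carry several long peaks. In 23 genes there were at least 2, and 3 each were found in glt1 (glutamate synthase, scores 403, 383 and 696), rpb1 (the largest subunit of RNA polymerase II, 240, 103 and 430) and ura1 (the first enzyme of pyrimidine synthesis, 349, 178 and 206). Together the 3 peaks covered 79.0% of the coding span in glt1, 79.0% in rpb1 and 74.2% in ura1. These 3 genes were named after their values were seen.

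Little of the peaks lay outside the coding span. In 432 of 493, at least 95% of the peak lay between the start and the stop codon of its main gene. The start codon was inside the peak in 47 cases (9.53%, interval 7.09% to 12.5%), the stop codon in 102 (20.7%, 17.2% to 24.5%), both in 11 and neither in 355. The upstream end lay a median of 394 bp past the start codon, and the downstream end a median of 125 bp short of the stop codon. The downstream end lay within 100 bp of the stop codon in 195 peaks (39.6%, 35.2% to 44.0%), and the upstream end within 100 bp of the start codon in 122 (24.7%, 21.0% to 28.8%). In the shorter peaks these shares were 27.3% and 12.8%. Only 6 long peaks ran over 100 bp upstream of the start codon and 28 ran over 100 bp past the stop codon. The length that defines the class makes an end near a codon more likely, so the difference from the shorter peaks is a description.

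**Figure D2:**
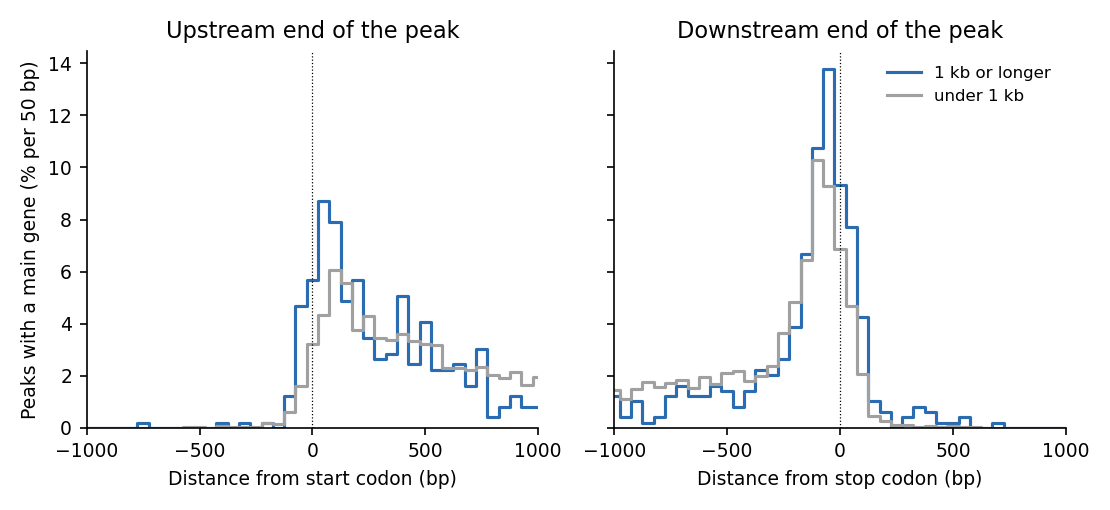
Position of the upstream peak end relative to the start codon and of the downstream end relative to the stop codon (x axes, bp; positive is downstream), as the percent of peaks with a main gene in each bin of 50 bp (y axes), for the 493 long peaks in blue and the shorter peaks in grey. Both ends of the long peaks pile up beside the codons, most of all in the bin 50 bp before the stop codon, which holds 13.8% of them.

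Some genes were covered from codon to codon. For both ends to lie within 100 bp of their codons was seen in 55 peaks, of which 30 were on coding spans under 1500 bp and 20 on spans of 1500 to 2000 bp. At act1, the actin gene, the peak ran from 32 bp before the start codon to 30 bp short of the stop codon (score 172). At tkt1 it ran from 44 bp past the start codon to 47 bp past the stop codon. At psu1 it ran from 32 bp before the start codon to 345 bp past the stop codon. At adh1 the peak began 387 bp past the start codon and ended 455 bp past the stop codon, so it covered the later 63.2% of the gene and the sequence after it.

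Averaged over the main genes, the coverage was shaped like a plateau that leaned downstream. The genes were chosen by a peak of 1 kb or longer, and a run that long within a coding span tends to cross its middle. The plateau thus follows in part from the rule, and the profile is a description. Of 50 evenly spaced points from start to stop codon, the first was under a long peak in 12.4% of the 467 genes and the last in 25.9%, and the highest value in between was 86.1%. Beyond the coding span it fell from 21.5% right after the stop codon, and 50 bp before the start codon it was 4.50%. Summits lay a median of 57.4% of the way along the coding span, against 58.3% for the shorter peaks. Divided into 5 equal parts from start to stop, the coding spans held 58, 93, 116, 114 and 111 summits, and the remaining summit, at the translation initiation factor gene tif1, lay past the stop codon.

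**Figure D3:**
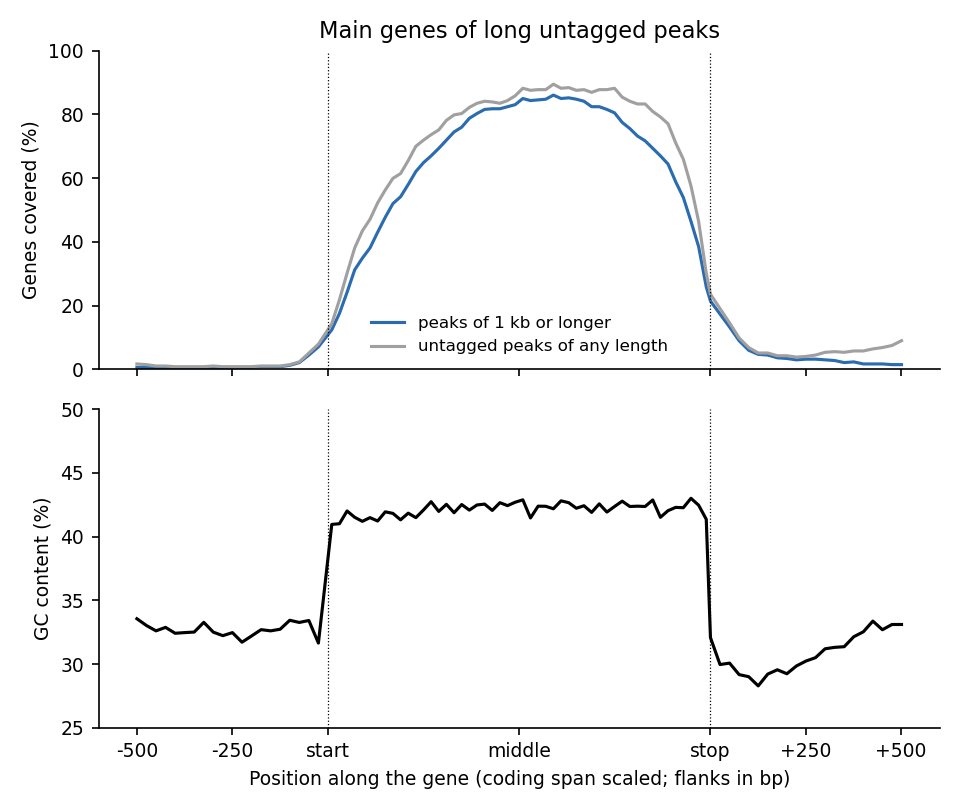
Upper panel, percent of main genes under an untagged peak (y axis) along the scaled coding span and 500 bp to either side (x axis), for long peaks in blue and peaks of any length in grey, over 467 genes. Lower panel, GC content (percent) of the same genes. Coverage by long peaks is highest, at 86.1%, inside the coding span, and GC content steps up at the start codon and down at the stop codon but is nearly level between them. The genes were chosen by holding a long peak, which favours coverage in the middle of the span.

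GC content steps at the same codons. In windows of 25 bp it was 31.6% just before the start codon, 41.0% at the first point of the coding span, 41.4% at the last and 32.1% right after the stop codon. Introns, which have a low GC content in this yeast, made up 0.527% of the bases under long peaks, against 3.28% of the genome. Under shorter peaks the intron share was 1.08%. In the 133 main genes with introns, 12.2% of intron bases lay under long peaks, against 53.3% of coding exon bases of these genes. Of the main genes 28.5% had an intron, against 47.6% of all genes with a coding span of 1 kb or more. The main genes were chosen by an unbroken peak of 1 kb or longer, and few intron bases lay under such peaks. The difference is thus a description.

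Inside the genes, too, the covered part was richer in G and C. In 360 genes at least 200 coding bases lay under a long peak and at least 200 under no untagged peak. The covered bases had the higher GC content in 319 of them, with medians of 42.2% and 39.7%. The median difference was 2.63 percentage points, with the middle 50% of genes between 1.28 and 3.95 and the extremes at -4.24 and 12.8. At peak ends with coding sequence on both sides, the 100 bp inside had the higher GC content in 367 of 595. For ends of shorter peaks the count was 2417 of 4283. The first and last 300 coding bases of the main genes differed little, with medians of 42.0% and 41.3%. The 200 bp around the summit were richer in G and C than the whole peak in 445 of 504.

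**Figure D4:**
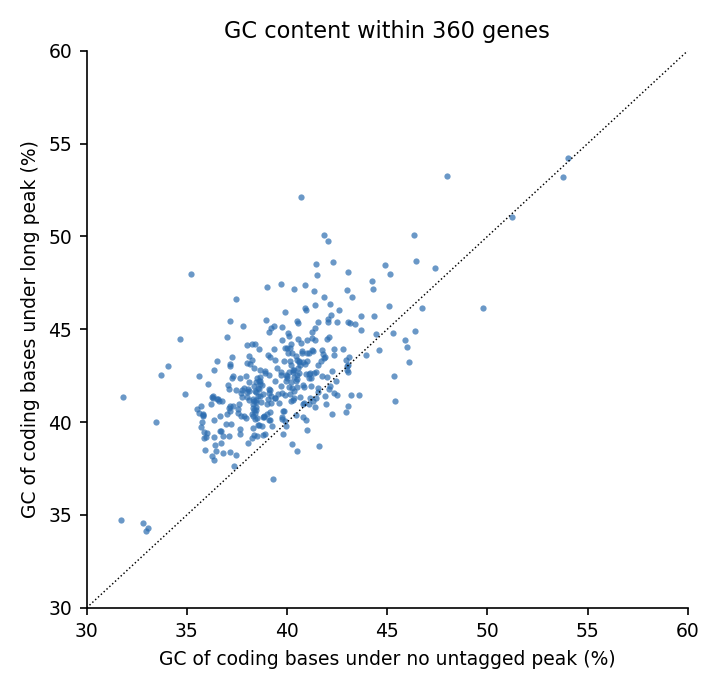
GC content of coding bases under no untagged peak (x axis, percent) and under a long peak (y axis, percent) in the same gene, 1 point for each of 360 genes, with the line of equality dotted. Of the points, 319 lie above the line.

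GC content also went with the score. Over the 504 long peaks Spearman's rho with the score was 0.54 for the GC content of the peak and 0.65 for the 200 bp at the summit, as a description of 1 library in which all peaks share the same reads. The 126 highest-scoring peaks (316 to 2584) had a median GC content of 45.1% and covered a median of 78.9% of the coding span. The 126 lowest (37 to 129) had 40.6% and 51.1%. The part of GC content in the recovery of these sequences was not tested.

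Counted from the genes, 331 of 5113 protein-coding genes (6.47%) had at least 50% of the coding span under long peaks. A gene shorter than 1 kb can hardly qualify, and 327 of the 3171 genes with a coding span of 1 kb or more (10.3%) did. These percentages are the background for the lists below, whose counts describe the members of each list and were not tested. A gene not touched by a long peak can still lie under shorter untagged peaks, as 1690 of the 2706 untouched genes with a coding span of 1 kb or more did. In all, 104 of the covered genes were in at least 1 of the 21 lists and 227 in none.

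Of 23 genes of glycolysis and fermentation with a coding span of 1 kb or more, 11 (47.8%) were covered. They include hxk1 (hexokinase, 95.8% of the span), pgi1 (glucose-6-phosphate isomerase, 92.1%), pfk1 (phosphofructokinase, 95.8%), tdh1 (glyceraldehyde-3-phosphate dehydrogenase, 81.7%), pgk1 (phosphoglycerate kinase, 90.6%), eno101 (78.0%), pyk1 (pyruvate kinase, 70.3%), pdc101 (pyruvate decarboxylase, 93.3%) and adh1 (63.2%). The other 12 were touched by no long peak, but 9 of these lay under shorter untagged peaks. The shorter peaks covered 86.6% of fba1 (aldolase) and 89.6% of gpd3 (a second glyceraldehyde-3-phosphate dehydrogenase gene), where their lengths of 967 bp and 903 bp fell just below the threshold and their scores were 638 and 826. They covered 76.4% of hxk2, 67.4% of adh4 and 25.9% of eno102.

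Of 16 translation factor genes of that length, 9 (56.2%) were covered. The 3 copies of the EF-1 alpha gene, tef101, tef102 and tef103, were covered to 100%, 96.7% and 93.9%, and both copies of the EF-2 gene, eft201 and eft202, to 88.7% and 94.8%. These 5 peaks were over 50% repeated sequence, since the copies are nearly identical, and only 4 factor genes remained without such peaks: tef3 (96.2%), tif1 (eIF4A, 84.0%), tif471 (eIF4G, 53.3%) and tif303 (eIF3c, 74.5%). Reads from near-identical copies cannot be placed with certainty. Of the 142 ribosomal protein genes 9 were long enough, and 2 were covered, the L3 genes rpl301 (88.6%) and rpl302 (90.9%), both again mostly repeated sequence. Another 87 of the 142 were touched by shorter untagged peaks only. Of 34 genes for aminoacyl-tRNA synthetases, which load tRNAs, 6 were covered (17.6%), with scores of 87 to 200. Their coverage ran from 51.1% in lrs1 (leucine) to 99.0% in yrs1 (tyrosine), and 3 were at least 80% covered.

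Chaperone genes were covered in 7 of 21 (33.3%). They were the Hsp70 genes ssa1 (63.5%), ssa2 (88.0%), sks2 (96.2%) and ssc1 (92.3%), the mitochondrial chaperonin gene mcp60 (100%), the co-chaperone gene sti1 (98.1%) and cct5 (78.0%), a subunit of the cytosolic chaperonin. Long peaks took up 47.4% of hsp90. The other 13 genes, among them hsp104, had only shorter peaks, which reached 999 bp at bip1.

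Genes for membrane pumps and nutrient transporters were covered in 12 of 24 (50%). These were the proton pump genes pma1 (98.3%) and pma2 (69.9%), the hexose transporter genes ght1 (71.8%), ght2 (100%), ght5 (99.9%) and ght8 (97.3%), the ammonium transporter genes amt1 (79.5%) and amt2 (73.9%), the drug efflux genes bfr1 (87.7%) and pmd1 (84.9%), the proline transporter gene put4 (76.6%) and the potassium transporter gene trk1 (50.8%). Among all 179 genes annotated as transporters or permeases with 1 kb or more, a list chosen after the values were seen, 33 (18.4%) were covered. Of 12 iron and phosphate genes 3 were covered: fio1 (iron uptake, 71.0%), pho1 (acid phosphatase, 76.1%) and pho84 (phosphate transporter, 76.7%).

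Biosynthesis lists followed. In amino acid synthesis 19 of 39 genes (48.7%) were covered, for example arg4 (98.2%), leu3 (96.5%), gln1 (glutamine synthetase, 94.1%), gdh1 (glutamate dehydrogenase, 88.9%) and ilv1 (84.3%). In fatty acid and sterol synthesis 8 of 16 (50%) were covered (the 16 include lsd1, annotated as a histone demethylase gene and not touched by a long peak), among them erg6 (100%), ole1 (the fatty acid desaturase, 98.1%), erg1 (96.1%) and fas2 (66.1%). In nucleotide synthesis 5 of 18 (27.8%) were covered, ura1 (74.2%), ade1 (74.9%), ade3 (67.6%), ade8 (83.0%) and ade10 (57.1%). In one-carbon, methionine and thiamine metabolism 5 of 16 (31.2%) were covered, met17 (93.5%), met26 (93.6%), shm1 (91.2%), thi4 (74.6%) and thi9 (89.7%).

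Of 28 cell wall genes 3 (10.7%) were covered: psu1 (100%), ecm33 (100%) and bgs4 (57.1%), a glucan synthase gene. Of 17 cytoskeleton genes 3 (17.6%) were covered: act1 (97.3%), atb2 (alpha-tubulin, 77.9%) and fim1 (fimbrin, 52.8%). Of 14 proteasome and Cdc48 genes 3 (21.4%) were covered: cdc48 (82.7%), rpt1 (67.2%) and rpn2 (71.5%). Of 8 genes for the ATP synthase and the vacuolar ATPase 1 (12.5%) was covered, atp2 (100%). Of 20 ribosome biogenesis genes 5 (25%) were covered: gar2 (59.4%), nop58 (61.9%), rpa2 (74.4%), dbp2 (55.4%) and drs1 (86.2%), although drs1 is annotated in this genome as an aspartyl-tRNA synthetase gene and also stands in that list.

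Of the RNA polymerase II subunit genes, 2 reach 1 kb: rpb1 was covered by long peaks (79.0%), and rpb2 by shorter peaks only (53.1%). Of 17 meiosis genes, only ste11, which codes for the transcription factor that turns on sexual development, was covered (88.4%). In the SUMO pathway, 1 of 7 genes was covered, ulp1, which codes for an enzyme that removes SUMO (60.9%, score 290). The gene rrp1 was under a long peak over 38.2%, while pli1 had only shorter peaks (29.6%) and nse2 no untagged peak. None of the 6 genes of the Smc5/6 complex with 1 kb or more was touched by a long peak, and shorter peaks touched 2, smc6 (17.1%) and nse5 (46.4%). None of the 10 histone genes reaches 1 kb, so none could be covered by the rule used here, and 5 of them were touched by shorter peaks. Of 100 transcription factor genes, 17 (17.0%) were covered, of 90 protein kinase genes 8 (8.89%), and of 8 actin patch genes 3 (wsp1, 60.2%; lsb4, 70.3%; aip1, 61.2%). These last 3 lists were also chosen after the values were seen.

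The covered genes had a higher median index of codon usage than the other genes. The codon adaptation index compares a gene's codons with those of the ribosomal protein genes and runs from 0 to 1. Without ribosomal protein genes, its median was 0.458 in the 329 covered genes (middle 50%, 0.401 to 0.565) and 0.392 in the 2837 genes of 1 kb or more that were not covered (0.369 to 0.423). The middle 50% overlapped only from 0.401 to 0.423, while the full ranges (0.305 to 0.845 and 0.256 to 0.836) overlapped widely. The highest values were in tef103 (0.845), tef102 (0.845) and tef101 (0.840), followed by pma1 (0.829), and ssa2 had 0.796. High-scoring peaks were also found at wsp1 (0.398), within the middle 50% of the genes that were not covered, and at shd1 (0.431), above it. Both were below the median of the covered genes. All genes of 1 kb or more, without ribosomal protein genes, were then ranked by the index and divided into 5 equal groups. The share covered was 3.64% in the lowest group and 4.43%, 6.16%, 9.02% and 28.1% in the groups above it. Ranked by the GC content of the coding sequence instead, the shares were 0.475%, 1.58%, 5.37%, 13.4% and 30.5%. Codon index and GC content rise together, so each of the groups by GC content was split at its median index. In the group with the highest GC content, 67 of 316 genes with the lower index (21.2%) and 126 of 317 with the higher index (39.7%) were covered. In the group below it, 30 of 316 (9.49%) and 55 of 316 (17.4%) were covered, and in the middle group 5.38% and 5.36%. The lowest groups had 10 covered genes or fewer. No expression data were used, and the part of transcription was not tested.

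The 11 long peaks without a protein-coding gene had a median GC content of 37.1%, against 42.4% for the others, and 7 of them were over 50% repeated sequence. The highest was SPNCRNA.7192 (chromosome III, 1079454 to 1080470, score 1306), in centromere 3. A peak over tRNA genes in the same centromere, with no annotated gene at its summit (chromosome III, 1105599 to 1106650), scored 584. The peak at SPNCRNA.7226 (chromosome III, 1128975 to 1130168) scored 171, and SPNCRNA.3688 (160) lay in centromere 1. In the mating-type region SPNCRNA.390 scored 675. At chromosome ends lay SPAC212.09C (726), SPNCRNA.6641 (234) and SPBC1348.11 (81). The small nucleolar RNA gene snoU14 (742) and the non-coding RNA gene nam1 (257) were the highest in sequence with no repeats, and SPCC188.10C scored 204. Of these 11 peaks 5 held a Pli1 summit and 2 an Nse2 summit.

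The tagged lists can be compared with the long peaks only by summit, because their regions covered nearly the whole genome and no long peak touched a gap in either list. Of 299 Pli1 summits, 56 (18.7%, interval 14.5% to 23.6%) fell inside a long untagged peak. Of 62 Nse2 summits, 17 (27.4%, 16.9% to 40.2%) did. Long peaks hold 5.48% of the genome. Each of these summits was in a different long peak, so 56 of 504 long peaks (11.1%, 8.50% to 14.2%) held a Pli1 summit, against 112 of 3031 shorter peaks (3.70%, 3.05% to 4.43%) and 4.75% of all untagged peaks. For Nse2 the counts were 17 of 504 (3.37%, 1.98% to 5.35%) and 24 of 3031 (0.792%, 0.508% to 1.18%), and 1.16% of all untagged peaks.

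A longer peak has more room for a summit, so the counts were also set against length. Each tagged region has 1 summit whatever its length, for example 2062 bp for Pli1 at wsp1 and 1548631 bp for Nse2 at eno101. Summits per Mb thus count regions by their highest point and do not measure the amount of tagged signal. Pli1 had 81.3 summits per Mb in long peaks (61.4 to 106), 67.5 per Mb in shorter peaks (55.6 to 81.2) and 12.8 per Mb outside untagged peaks (10.7 to 15.2). Nse2 had 24.7 (14.4 to 39.5), 14.5 (9.27 to 21.5) and 2.05 (1.27 to 3.14). Per Mb, the intervals for long and shorter peaks overlapped for both proteins, and both lay above the sequence outside untagged peaks.

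**Figure D5:**
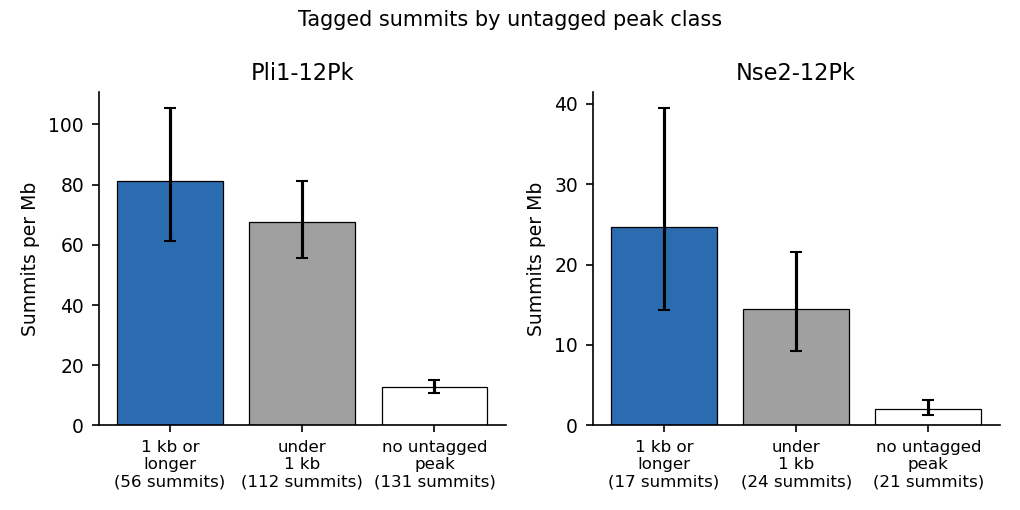
Tagged summits per Mb (y axis, from 0) inside untagged peaks of 1 kb or longer, inside shorter untagged peaks and outside them, for Pli1 (left) and Nse2 (right), with exact 95% Poisson intervals for counting error as bars and 1 library each. For Pli1 the values are 81.3, 67.5 and 12.8 per Mb. Each tagged region counts once, by its 1 summit.

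The tagged summits lay close to the untagged summit of the same peak. For Pli1 the median distance was 29.5 bp, 40 of 56 were within 100 bp and 13 were over 500 bp away, the farthest at 1491 bp. For Nse2 the median was 21 bp, 13 of 17 were within 100 bp and 3 were over 500 bp away, the farthest at 872 bp. Along the genes, the Pli1 summits lay a median of 77.2% of the way to the stop codon (51 summits with a main gene) and the Nse2 summits 66.9% (15 summits).

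Long peaks with a tagged summit had higher median untagged scores than those without, with wide overlap for Pli1. The median untagged score was 406.5 with a Pli1 summit and 187 without, and 733 with an Nse2 summit and 192 without. Of the 126 highest-scoring long peaks 36 held a Pli1 summit and 17 an Nse2 summit, while of the 126 lowest 1 (klp9, score 68) and 0 did. All Nse2 summits in long peaks were thus in the 126 highest. The peaks with a Pli1 summit had a median GC content of 44.3%, against 42.1% for the others, and those with an Nse2 summit 46.3%, against 42.2%.

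The highest-scoring Pli1 summits inside long peaks were at snoU14 (Pli1 score 16516, rank 11 of the Pli1 list), SPNCRNA.7192 (11678), SPNCRNA.390 (9983), nam1 (8527) and adh1 (7440). Next came the centromeric tRNA cluster (6816), eno101 (6423), tef103 (6055), psu1 (5714) and ssa2 (5228). Thus 5 of these 10 were in peaks without a protein-coding gene. The highest-scoring Nse2 summits inside long peaks were at adh1, which led the whole Nse2 list (41291), SPNCRNA.7192 (31404), eno101 (30303), ssa2 (29073) and tef103 (28833). Then came snoU14 (24090), pdc101 (23079), atd1 (21206), which codes for an aldehyde dehydrogenase, pyk1 (20433) and tef101 (19695). Scores of the Pli1 and Nse2 lists are not on a common scale.

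In 12 long peaks there was a summit of both proteins. They were ssa2, SPNCRNA.7192, eno101, psu1, adh1, tlh1, pyk1, snoU14, gnd1 (phosphogluconate dehydrogenase), tef103, anc1 (the mitochondrial ADP/ATP carrier) and pdc101. The Pli1 and Nse2 summits were within 100 bp of each other in 8 of them, with a median of 43.5 bp. In ssa2 they lay 69 bp apart, 10 and 59 bp from the untagged summit. In anc1 they lay 15 bp apart, 13 and 2 bp from it. In psu1 they were 964 bp apart, and the Nse2 summit was 21 bp from the untagged summit while the Pli1 summit was 985 bp away. In gnd1 it was the Pli1 summit that lay near (21 bp) and the Nse2 summit that lay far (872 bp). The tagged strains share the antibody and the calibrator with the untagged strain, and how much of their signal at these positions came from the tag was not tested.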

How the data were processed

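The values were lists of peaks from 1 ChIP library per strain. Cutadapt, Bowtie2, SAMtools, MACS3 and the calibrator's build sacCer3 are named, without versions, in the submitters' processing notes. Per the file headers, peaks were called on a p-value track from reads uniquely mapped to S. pombe, and the deposited score per peak is a whole number. Its scale, threshold and depth and the calibration factors were not given in the sources used, and 3 further columns (fold, p and q) are 0 throughout. Sequence names and versions match ASM294v3, whose RefSeq annotation and sequence were used. The 3 inputs were not analysed here.

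Code in Python 3.11.15, NumPy 2.4.6, SciPy 1.17.1 and Matplotlib 3.10.9 was tested on simulated data. Positions count from 1. A gene was covered at 50% of its coding span, introns included. Lists were matched by symbol, synonym or product. The members and lists were chosen with earlier results of these data known. The words that pick ribosomal protein and synthetase genes were adjusted to the annotation, and 4 lists were chosen after values were seen. Named peaks were the 15 highest, 10 longest and 5 lowest, 5 on either side of the threshold, those with the 10 highest summits of each tagged list, the 11 without a gene (the 177 with a gene under 50% covered are only counted), and covered genes of lists with 5 or fewer. Other genes are examples chosen after their values were seen. Capitals mark G and C in place of the planned stop codon. Alternatives changed length, score, merging, coverage, span, ends, main gene, summit rule and repeats.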

Additional observations from a re-analysis of the deposited data

How the results depend on the processing

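A count was taken as moved when it changed over 1.5 times, and any other value when it left its interval. Of 78 alternative values, 52 did not move and 26 did. Covered genes numbered 473 at any overlap, 389 with merging and 248 over whole gene spans, within 1.5 times of 331. From 1500 bp there were 129 peaks and 105 covered genes, with a share of 77.6%, a score of 243, the stop codon inside in 24.8%, 7.02% of Pli1 and 9.68% of Nse2 summits, and a codon index of 0.501 (0.461 as reported with ribosomal protein genes). From 800 bp these were 857 peaks, 501 genes, a share of 56.4%, a score of 182 and 24.1% of Pli1 summits, with no codon index reported. With scores of at least 200 they were 247 peaks, 180 genes, a share of 73.4%, a score of 317, 30.1% with the stop codon and a codon index of 0.513. Merging peaks within 200 bp gave a share of 67.7%. At 80% coverage 149 genes counted, 59 of them in lists. Over whole annotated gene spans the share was 48.1%, and 1.83% of peaks held the start and 1.83% the end of the gene. In tagged regions of 10 kb or longer, 43.6% of Nse2 summits fell in long peaks. A longer, shorter or stricter list changes its own counts by construction; the causes of other moves were not tested. Leaving out peaks that are mostly repeated sequence, chosen after seeing the data, took the covered translation factor genes from 9 to 4 and the ribosomal protein genes from 2 to 0. No paired analysis was possible because there is 1 ChIP library per strain. The unknown depth and score scale limit every comparison between lists.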
